A study of Homo sapiens with 6 samples.

Results

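The antisense transcript H1FX-AS1, its partner gene H1FX and 7 other histone genes that lie outside the large histone clusters were followed in 1205Lu cells, an established line from a metastatic melanoma. These 9 genes were taken by symbol from a table of 23368 genes. The set was selected on the read counts of H1FX-AS1, which were lower in the SOX10 group, so its difference between the groups is given as a description without a test. That choice did not use the values of the 8 histone genes, but it was made with earlier results of these data known. H1FX may also share reads with H1FX-AS1, as set out below. The cells received by transient transfection either a plasmid for SOX10 expression (pCMV6-SOX10) or the control plasmid (pCMV6), 7.8 µg of DNA per flask, and were lysed 24 h later. There were 3 biological replicates per group. All came from a single cell line that already expresses SOX10, and no label states what share of the cells took up plasmid. The comparison asks which genes respond to added SOX10, the transcription factor that marks neural crest cells and their melanocyte and Schwann cell descendants.

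Histones of the clustered genes are made in bulk during S phase, when new DNA has to be packed. The histones studied here can also be made outside S phase, and most of them can replace others in chromatin that already exists. H1.0 (H1F0) and H1.X (H1FX) are linker histones, which bind the DNA between nucleosomes. The other genes encode core histone variants: H2A.X (H2AFX), whose tail is phosphorylated around DNA breaks, macroH2A1 (H2AFY), which carries a large extra domain and is enriched on the inactive X chromosome, the 2 forms of H2A.Z (H2AFZ and H2AFV), found beside active promoters, and H3.3 (H3F3A and H3F3B), the H3 variant of transcribed genes.

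Libraries of the SOX10 group held more reads than those of the control group. Reads assigned to genes ranged from 2544420 to 4167393 in the SOX10 libraries and from 867917 to 2066520 in the controls. The group means differed by a factor of 2.71. A single read was worth 0.24 to 1.15 CPM (counts scaled to the reads in tested genes and to the TMM factor). SOX10 itself averaged 25.02 CPM (SD 8.45) over the SOX10 libraries and 19.6 CPM (SD 2.63) over the controls. Its log2 fold change of 0.35 ± 0.27 (SE) was not past the threshold of edgeR's quasi-likelihood test (adjusted p = 0.927), so these reads do not check the labels. Of the lineage genes S100B was abundant with means of 316 (SD 38.8) and 307 (SD 42.5) CPM, whereas MLANA had reads in 1 library only and TYR in 3 of 6. Markers of epithelium, leukocytes, endothelium and fibroblasts had at most 12 reads in any library.

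H1FX and H1FX-AS1 lie on chromosome 3, on opposite strands and with their starts towards each other. In RefSeq the first 16 bases of the 2 genes overlap. GENCODE release 29 lists 4 transcripts of H1FX-AS1, of which 2 have exons inside H1FX, so that 22.9% of the exonic bases of H1FX are also exonic, on the other strand, in H1FX-AS1. H1FX is a gene with a single exon. No source used here says whether the counting kept the strands apart, so H1FX and H1FX-AS1 may have exchanged reads and both values carry that doubt. The promoter of H1FX is shown because the 16 shared bases lie in it and 2 of the 4 GENCODE transcripts of H1FX-AS1 cross it (RefSeq, GRCh38.p14, chr3:129316271-129316536, minus strand). Capitals mark the TATAAA motif, 31 bases before the start, and then the 16 bases shared with H1FX-AS1. The first exon of the H1FX-AS1 transcript used below for its length follows (GENCODE 29, GRCh38, chr3:129318106-129318310, plus strand). It begins 1829 bases from the start of H1FX and shares no base with it.
H1FX promoter: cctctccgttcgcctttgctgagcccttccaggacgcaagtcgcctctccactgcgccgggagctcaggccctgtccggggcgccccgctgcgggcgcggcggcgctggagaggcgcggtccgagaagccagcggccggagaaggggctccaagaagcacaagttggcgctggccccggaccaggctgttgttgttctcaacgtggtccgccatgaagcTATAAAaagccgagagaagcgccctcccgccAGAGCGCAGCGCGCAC
H1FX-AS1 first exon: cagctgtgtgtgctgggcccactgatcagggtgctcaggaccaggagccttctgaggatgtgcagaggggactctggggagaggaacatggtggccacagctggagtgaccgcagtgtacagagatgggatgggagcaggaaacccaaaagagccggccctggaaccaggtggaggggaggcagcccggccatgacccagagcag

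Of the 9 genes 7, all but H1FX-AS1 and H1F0, had a promoter in the RefSeq table, which runs from 250 bases before a start to 50 after it. TATAAA, searched on both strands, was in the promoters of 4 of them, H1FX, H2AFX, H2AFZ and H3F3B, always on the coding strand and from 31 to 29 bases before the start. It was in 11.5% of 35116 promoters of this length. The last 50 bases before the start are shown for the other 3, with TATAAA in capitals, to set beside that of H1FX (GRCh38.p14, minus strand: chr11:119095466-119095515, chr4:99950276-99950325 and chr17:75779780-75779829).
H2AFX: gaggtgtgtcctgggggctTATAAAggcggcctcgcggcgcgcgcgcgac
H2AFZ: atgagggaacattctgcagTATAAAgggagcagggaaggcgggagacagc
H3F3B: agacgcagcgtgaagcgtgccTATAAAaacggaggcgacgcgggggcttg
Neither ACAAAG nor ACAATG, letters that SOX proteins are known to bind, was in the 300 bases of the H1FX promoter on either strand. They were in 16.1% and 10.8% of all promoters. ACAAAG was in an entry of H2AFY and in that of H3F3B, and ACAATG in entries of H2AFY and H3F3A. CCAAT was in the promoters of H2AFX, H2AFV, H2AFZ and H3F3B and in some but not all entries of H2AFY and H3F3A. It was not in that of H1FX. Of all promoters, with each entry counted singly, 34.6% had it. The letters AAACACA, known from linker histone promoters, were in entries of H3F3A alone, against 5.64% of all promoters.

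H1FX-AS1, a noncoding transcript, was lower in every SOX10 library than in every control library. The SOX10 libraries had 31, 22 and 42 reads of it and the shallower controls 31, 32 and 54. Scaled to depth this was 8.30, 8.77 and 10.2 CPM in SOX10 replicates 1 to 3 and 34.3, 36.9 and 26.3 CPM in the controls. The 3 SOX10 values lay close together, and control replicate 3 was the lowest of the controls. The means were 9.08 ± 0.97 and 32.5 ± 5.51 CPM (SD, n = 3 each). This is a log2 fold change of -1.79 ± 0.26 (SE), which makes the control level 3.46-fold higher. Without any single library it ran from -1.96 to -1.69, and in a single random thinning of all libraries to equal depth it was -1.55. In bulk RNA, fewer cells with a transcript and less of it per cell cannot be told apart.

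H1FX was less regular than its antisense partner. The SOX10 libraries had 56, 14 and 33 reads of it and the controls 14, 13 and 27, or 14.996, 5.58 and 7.99 CPM against 15.5, 14.994 and 13.2 CPM. The controls lay within a narrow range, SOX10 replicates 2 and 3 lay below all of them, and SOX10 replicate 1 lay among them. The log2 fold change was -0.56 ± 0.37 (SE), with a 95% confidence interval from -1.32 to 0.20 (edgeR, adjusted p = 0.913). Without SOX10 replicate 1 it was -1.04 (edgeR, adjusted p = 0.470) and without SOX10 replicate 2 it was -0.32 (edgeR, adjusted p = 0.964). A single random thinning of all libraries to equal depth gave -1.15 (edgeR, adjusted p = 0.998), a draw that leaves few H1FX reads. Over all alternatives the adjusted p ran from 0.470 to 0.9999. SOX10 replicate 1 and control replicate 3 held 93.5 and 97.0 reads outside genes per 100 assigned reads, against 121 to 135 in the other libraries. With reads outside genes as a covariate H1FX had -0.65 (edgeR, adjusted p = 0.682). Without both of these libraries the log2 fold change of H1FX was -1.13 (edgeR, adjusted p = 0.690).

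The ratio of H1FX-AS1 to H1FX reads, which does not depend on library depth, was 2.21, 2.46 and 2 in control replicates 1 to 3. It was 0.554, 1.57 and 1.27 in the SOX10 libraries. Every SOX10 ratio was thus below every control ratio, and SOX10 replicate 1 was the only library with more reads for H1FX than for its antisense partner. The geometric means were 1.03 and 2.22, a log2 difference of -1.10, given as a description because H1FX-AS1 was chosen for its fall. With the reads of both genes summed the log2 fold change was -1.29.

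**Figure D1:**
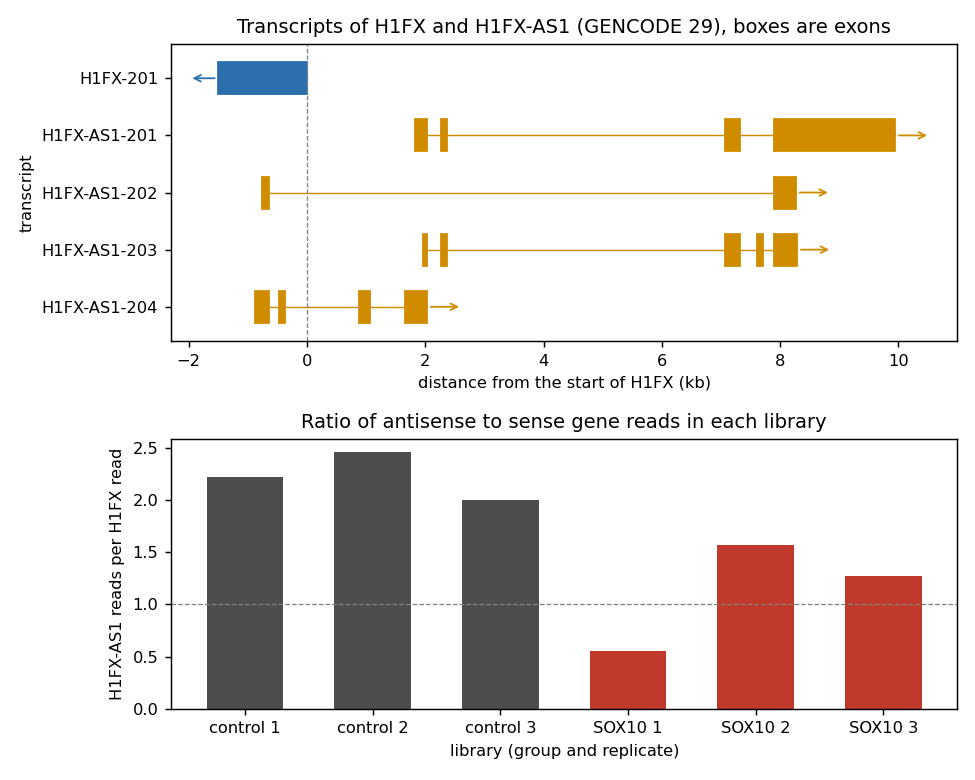
The upper panel shows the exons (boxes) of H1FX and of the 4 H1FX-AS1 transcripts in GENCODE 29 against the distance in kb from the start of H1FX, with arrows for the direction of transcription. The lower panel gives the H1FX-AS1 reads per H1FX read in each library as bars that start at 0, with a dashed line at 1: the 3 controls reach 2 to 2.46 and the 3 SOX10 libraries 0.554 to 1.57.

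H1F0, the linker histone that builds up in resting and differentiating cells, was more abundant per kb of transcript than H1FX in every library. It stood at 224, 179 and 142 CPM in SOX10 replicates 1 to 3 and at 191, 185 and 248.7 CPM in the controls. The highest libraries were control replicate 3 and SOX10 replicate 1, both low in reads outside genes, and the groups overlapped widely. On the log2 scale the fold change was -0.22 ± 0.15 (SE) (edgeR, adjusted p = 0.915). Leaving out SOX10 replicate 1 gave -0.41, and leaving out control replicate 3 gave -0.05. With reads outside genes as a covariate it was -0.29 (edgeR, adjusted p = 0.332). Per H1F0 read the SOX10 libraries had 0.0671, 0.0312 and 0.0563 H1FX reads and the controls 0.0809, 0.0813 and 0.0529. The log2 ratio differed by -0.52 between groups, with p = 0.3 by a two-sided exact permutation test over 3 against 3 libraries and 0.5 after adjustment over the 2 ratios tested, where the smallest p possible is 0.1.

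H2AFX, the source of the DNA damage mark, had almost the same mean in both groups. It stood at 261, 274 and 233 CPM in the SOX10 libraries and at 280, 268 and 219 CPM in the controls. Its log2 fold change was 0.01 ± 0.12 (SE) (edgeR, adjusted p = 0.998), and its 95% confidence interval spans 0.855-fold to 1.19-fold. H2AFY, the macroH2A1 gene, stood at 123, 118 and 142 CPM against 116, 126 and 101 CPM. Its highest library was SOX10 replicate 3 and its lowest control replicate 3, and the other 4 lay between 116 and 126 CPM. The resulting log2 fold change was 0.18 ± 0.13 (SE) (edgeR, adjusted p = 0.915). In GENCODE 29, 30.9% of the exonic bases of H2AFY are also exonic on the other strand in C5orf66 and AC026691.1, so its value shares the doubt about strand. To a smaller extent so do those of H2AFZ, with 9.68% of such bases, H3F3B with 3.49% and H3F3A with 0.83%. For H1FX-AS1 the share was 15.85%, in H1FX and NUP210P3 together.

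The H2A.Z genes encode nearly identical proteins, and H2AFZ had more reads than H2AFV in every library. It stood at 424, 459 and 409 CPM in the SOX10 libraries and at 480, 392.2 and 436 CPM in the controls, and its log2 fold change was -0.02 ± 0.10 (SE) (edgeR, adjusted p = 0.993). H2AFV stood at 214, 255 and 279 CPM against 217, 265 and 219 CPM, with a log2 fold change of 0.10 ± 0.12 (SE) (edgeR, adjusted p = 0.936). The groups overlapped for both. Per H2AFV read the SOX10 libraries had 1.98, 1.80 and 1.47 H2AFZ reads and the controls 2.21, 1.48 and 1.99. The log2 ratio differed by -0.10, with p = 0.5 by the exact permutation test, two-sided, and 0.5 after adjustment. Summed, the pair stood at 680 ± 39.0 CPM in the SOX10 group and 670 ± 23.2 CPM in the control group (mean ± SD of 3).

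H3F3B carried all counted reads of H3.3. It stood at 566, 511 and 569 CPM in the SOX10 libraries and at 541, 624 and 580 CPM in the controls, with a log2 fold change of -0.08 ± 0.10 (SE) (edgeR, adjusted p = 0.933). Its 95% confidence interval spans 0.822-fold to 1.09-fold. H3F3A, which encodes the same protein from another chromosome, is listed at 0 reads in all 6 libraries. Finding 0 reads still allows for as many as 3, which is 0.73 to 3.46 CPM depending on the library and covers counting error only. Of the 50-base stretches of H3F3A transcripts in GENCODE 29, 11.7% also occur in transcripts of 12 other genes, with the largest number in the pseudogene H3F3AP4, which is also listed at 0 in all libraries. The corresponding share was 4.0% for H3F3B, 3.0% for H2AFV, 2.37% for H2AFZ and 0.31% for H2AFX. Whether shared sequence or the annotation set the row of H3F3A to 0 was not tested, so the level of H3.3 from both genes and the planned ratio of H3F3B to H3F3A cannot be given.

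**Figure D2:**
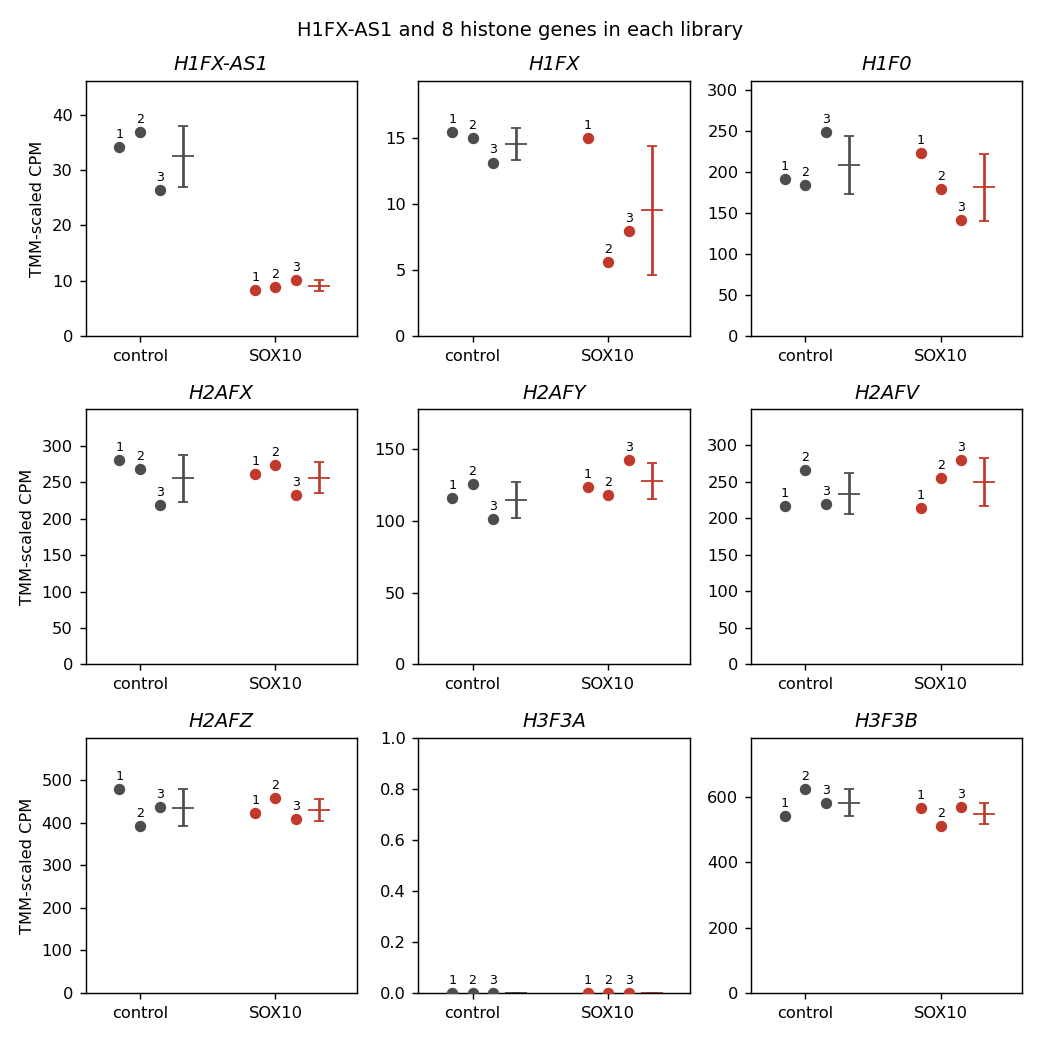
Each panel shows 1 gene, with TMM-scaled CPM on an axis from 0 and a numbered point for each replicate (grey control, red SOX10), beside the mean with its SD. H1FX-AS1 is the gene whose groups do not overlap, at 8.30 to 10.2 against 26.3 to 36.9 CPM, and H3F3A lies at 0 throughout.

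Of the 8 histone genes 7 had enough reads for the test, and 0 of these 7 passed at an adjusted p under 0.05 by edgeR, where 0.112% of all 10678 tested genes passed in either direction. Of the 7, 0 had an unadjusted p under 0.05, against 6.23% of all tested genes. DESeq2 and limma-voom also called 0 of the 7 at an adjusted p under 0.05. The 3 SOX10 libraries lay outside the range of the controls for 0 of the 7, against 11.8% of all tested genes. Among the 7 the median log2 fold change was -0.02 and the range -0.56 to 0.18, beside a median of 0.01 over all genes. The 95% confidence intervals of the 5 core histone genes tested lay between 0.822-fold, the lower bound of H3F3B, and 1.37-fold, the upper bound of H2AFY. For H1FX, with 157 reads in all, the interval reached down to 0.402-fold.

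**Figure D3:**
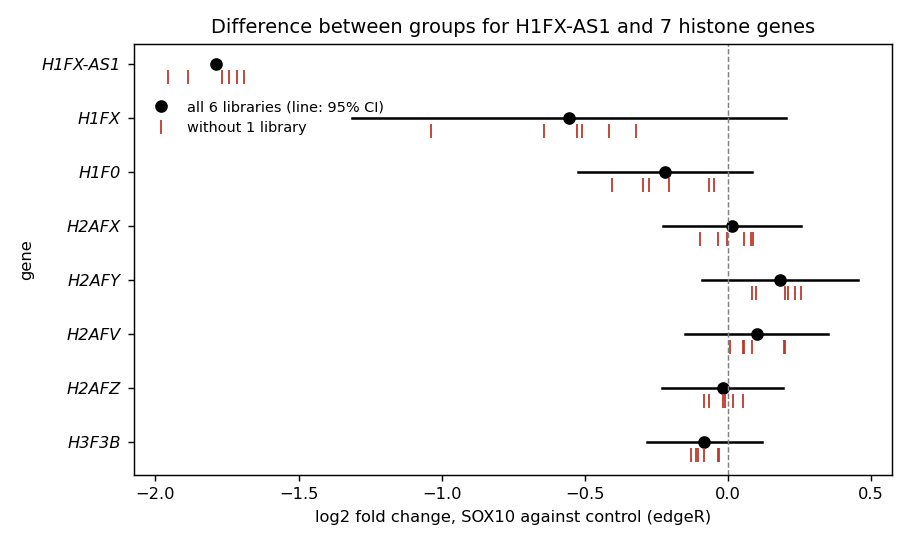
Black points are log2 fold changes of SOX10 against control from edgeR on all 6 libraries, with 95% confidence intervals for the 7 tested histone genes, and red ticks are the values without 1 library. H1FX-AS1, drawn without an interval, sits at -1.79, while the intervals of the 7 histone genes include 0 and the ticks of H1FX spread from -1.04 to -0.32.

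The 8 histone genes together, with H3F3A at its listed 0, made up a nearly constant part of the assigned reads. Their sum was 1827, 1802 and 1782 CPM in the SOX10 libraries and 1840, 1874 and 1817 CPM in the controls. H3F3B took 28.4% to 33.3% of it, H2AFZ 20.9% to 26.1%, and H1FX 0.31% to 0.84%. If the 0 of H3F3A is not its true level, the sum is too low and these shares are too high. Per kb of transcript, with the lengths of GENCODE 29, H2AFZ led at 401 to 490 CPM per kb over the 6 libraries. H2AFV followed at 284 to 371, H3F3B at 189 to 231, H2AFX at 136 to 173, H1F0 at 60.6 to 106 and H2AFY at 36.2 to 50.9 CPM per kb, and no neighbours in this order overlapped. H1FX-AS1 and H1FX came last among the genes with reads, at 3.19 to 14.2 and 3.71 to 10.3 CPM per kb. With the 2600 bases of the transcript used, H1FX-AS1 was above H1FX in all 3 controls and below it in all 3 SOX10 libraries. This switch depends on that length. By all 3420 annotated exonic bases of H1FX-AS1 it was no longer above H1FX in every control. The order of levels depends on the length used, since by all annotated exonic bases H2AFV moves from place 2 to 5, H2AFX from 4 to 2 and H1FX from 8 to 6. Clustered histone genes, with 60 symbols that had reads, summed to 4563 ± 487 CPM in the SOX10 group and 4392 ± 365 CPM in the control group (mean ± SD of 3), and of the 39 tested 3 had an unadjusted p under 0.05, against 6.23% of all tested genes, and 0 an adjusted one by edgeR.

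Apart from H1FX-AS1, for which no test is given, none of the tested genes next to H1FX passed. Of the 5 RefSeq neighbours on each side, 3 besides H1FX-AS1 are in the table, and all were tested. COPG1, a subunit of the COPI vesicle coat, stood at 173 ± 15.8 CPM in the SOX10 group and 147 ± 16.8 CPM in the control group (mean ± SD of 3), with a log2 fold change of 0.22 ± 0.12 (SE) (edgeR, adjusted p = 0.871). C3orf37, now called HMCES, which shields abasic sites in single-stranded DNA, had 0.18 ± 0.23 (SE). RPL32P3, a transcribed pseudogene, had 24, 20 and 18 reads in the deeper SOX10 libraries against 2, 0 and 10 in the controls. Scaled to depth this was 6.43, 7.98 and 4.36 CPM against 2.21, 0 and 4.88 CPM, so the groups overlapped. The log2 fold change of RPL32P3 was 1.03 ± 0.59 (SE) (edgeR, adjusted p = 0.876). Among antisense transcripts named with the ending AS and a number, 16 of 149 were tested. Apart from H1FX-AS1, 0 of 15 passed by edgeR, against 0.112% of all tested genes, and 1 had p under 0.05 before adjustment, against 6.23%. Their median log2 fold change was -0.19, beside 0.01 over all genes.

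Among the 5 genes whose levels ran most like those of H1FX-AS1 over the 6 libraries were NCOR1, MET, C10orf137 and PPP1R15A, by Pearson correlation of log2 CPM among 8670 genes of at least 10 CPM. The correlations of these 4 ran from 0.97 to 0.99. All 6 points share library depth and group with the comparison that chose H1FX-AS1, so the likeness was in part fixed by that choice. So was a lower level of these genes in the SOX10 group, and their test results are given as a description only. MET, a receptor tyrosine kinase, stood at 8.03, 7.58 and 8.24 CPM in the SOX10 libraries and at 16.6, 18.5 and 12.7 CPM in the controls. Its log2 fold change was -0.94 ± 0.33 (SE) and did not pass (edgeR, adjusted p = 0.526). NCOR1, a corepressor of nuclear receptors, differed far less, at 454 against 507 CPM on average with a log2 fold change of -0.16 ± 0.09 (SE) (edgeR, adjusted p = 0.882). C10orf137 had -0.62 ± 0.18 (SE) (edgeR, adjusted p = 0.333). PPP1R15A, a phosphatase subunit of the stress response, had -1.08 ± 0.13 (SE) and passed (edgeR, adjusted p = 0.000103). For the 7 tested histone genes the correlation with H1FX-AS1 over the 6 libraries was 0.63 for H1FX, 0.50 for H3F3B, 0.25 for H1F0, 0.055 for H2AFX, 0.014 for H2AFZ, -0.16 for H2AFV and -0.39 for H2AFY, given as a description.

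Genes that place, exchange or read these histones were followed in 5 lists. Enough reads for the test were found for 88 of 109 genes, of which 0 passed in either direction at an adjusted p under 0.05 by edgeR, and 0 by DESeq2 and by limma-voom. An unadjusted p under 0.05 was found for 8 of the 88, or 9.09%, against 6.23% of all tested genes. By list these were 3 of 15 for the deposition of H3.3 and CENP-A, 2 of 28 for H2A.Z exchange, 1 of 20 for H2A.X phosphorylation, 2 of 23 for general chaperones and linker DNA proteins, and 0 of 2 for the other histones. The groups did not overlap for 12 of the 88, or 13.6%, against 11.8% of all tested genes. Of these, 8 were lower in the SOX10 libraries, as were 6.03% of all genes, and 4 were higher, as were 5.72%. The median over the 88 was -0.0042 and the range -0.59 to 0.46.

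For the deposition of H3.3 and of CENP-A, the histone of centromeres, 15 of 16 genes were tested, 5 with a positive and 10 with a negative log2 fold change and a median of -0.06. The lowest p-values belonged to UBN2 and UBN1, subunits of the HIRA complex, which places H3.3 outside of replication. UBN2 stood at 43.1, 57.0 and 60.1 CPM in the SOX10 libraries and at 81.8, 84.2 and 76.6 CPM in the controls. UBN1 stood at 42.8, 42.3 and 42.6 against 55.3, 78.4 and 58.5 CPM. Both were lower in every SOX10 library. On the log2 scale UBN2 differed by -0.59 ± 0.16 (SE) and UBN1 by -0.57 ± 0.17 (SE), and neither passed, with adjusted p-values of 0.282 and 0.366 by edgeR. The complex's other subunits, named after their values were seen, had values nearer to 0: HIRA had -0.06 ± 0.14 (SE) and CABIN1 -0.08 ± 0.16 (SE).

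In the complexes that exchange H2A.Z, 28 of 32 genes were tested, 16 with a positive and 12 with a negative value and a median of 0.02. EP400, a remodelling ATPase that works with the TIP60 acetyltransferase, stood at 58.6 ± 4.77 CPM in the SOX10 group and 79.7 ± 5.17 CPM in the control group (mean ± SD of 3), with -0.45 ± 0.15 (SE) (edgeR, adjusted p = 0.483). INO80, the ATPase of another remodelling complex, stood at 77.7 ± 6.48 against 104 ± 14.9 CPM, with -0.42 ± 0.14 (SE) and 0.514. Of 21 genes for H2A.X phosphorylation, its removal and its readers 20 were tested, 6 with a positive and 14 with a negative value and a median of -0.05. EYA3, a phosphatase of the H2A.X tail, had -0.58 ± 0.26 (SE), and RNF8, a ubiquitin ligase at DNA breaks, had -0.48 ± 0.28 (SE), with adjusted p-values of 0.758 and 0.882 by edgeR.

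Among general histone chaperones, importins and proteins of linker DNA, 23 of 24 genes were tested, 13 with a positive and 10 with a negative value and a median of 0.02. HMGN1, a nucleosome-binding protein, stood at 139 ± 11.2 CPM in the SOX10 group and 112 ± 9.51 CPM in the control group (mean ± SD of 3), with 0.32 ± 0.13 (SE). CHAF1B, a subunit of the chaperone that loads H3 at replication forks, stood at 20.0 ± 1.45 against 28.9 ± 6.12 CPM, with -0.55 ± 0.23 (SE). Their adjusted p-values by edgeR were 0.685 and 0.708. Of 16 other unclustered or tissue-restricted histone genes only CENPA and H2AFY2 were tested. CENPA stood at 14.3 ± 2.62 against 14.0 ± 2.25 CPM, with 0.05 ± 0.30 (SE). H2AFY2, which encodes macroH2A2, stood at 15.5, 16.4 and 8.96 CPM in the SOX10 libraries and at 4.42, 5.77 and 15.1 CPM in the controls, with 0.46 ± 0.39 (SE) (edgeR, adjusted p = 0.929). Its control replicate 3 lay above SOX10 replicate 3 and a little below the other SOX10 libraries. The 13 others in the table had 0 to 14 reads over all 6 libraries, and 6 of them, such as the testis gene HIST1H1T, had 0.

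**Figure D4:**
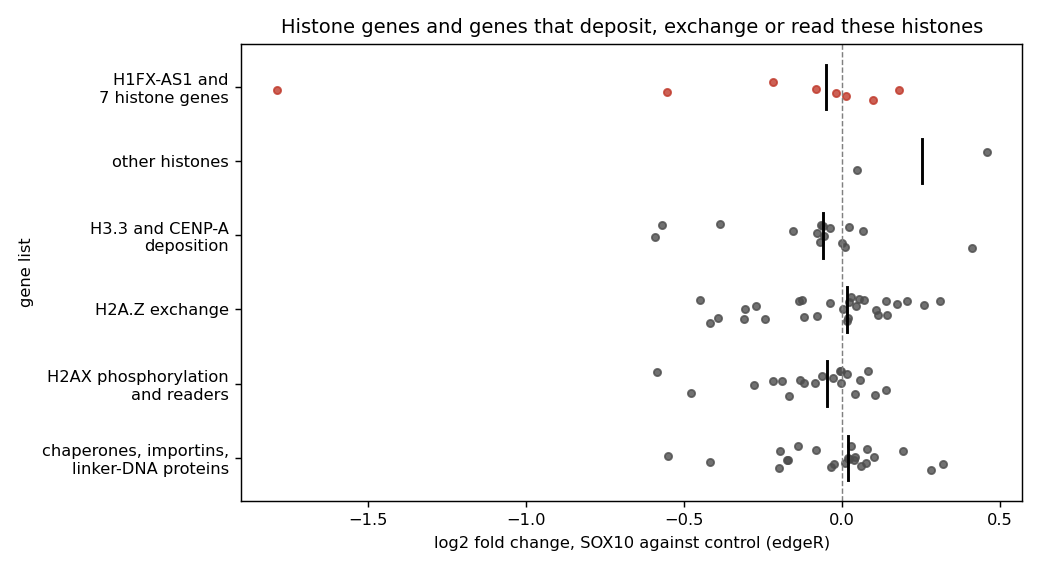
Each point is the log2 fold change of a tested gene, SOX10 against control from edgeR, in rows by gene list, and black bars are medians. The 88 genes of the 5 lists lie between -0.59 and 0.46, and H1FX-AS1 at -1.79 is the leftmost point.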

How the data were processed

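Per the labels' protocols, the 6 libraries were prepared with the NuGEN Encore Complete system, using 125 ng total RNA for each. The values deposited by the authors are raw read counts per gene symbol. Per the submitters' processing notes, TopHat 1.4.0, HTSeq and DESeq were used with build hg19, with annotation, strand and overlap settings not given in the sources used here. Rows that name no gene entered neither library sizes nor tests. Per 100 assigned reads they held 93.5 to 135 reads outside genes, 42.6 to 53.0 with several alignments and 1.25 to 1.32 ambiguous ones.

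Columns were matched to samples by title, and groups were taken from the treatment label. No library was a copy of another, since between replicates chi-square per degree of freedom was 1.98 to 7.44. The main test was edgeR 4.0.16 (quasi-likelihood, R 4.3.3) with all 6 libraries, TMM, filterByExpr (at least 10 reads and a total of 15) and Benjamini-Hochberg adjustment over 10678 genes at 0.05. CPM are scaled by TMM, and standard errors derive from the F statistic. Alternatives were other scalings and filters, DESeq2 1.42.0, limma-voom (limma 3.58.1) and a replicate block. Further ones were a single random thinning to equal depth, a covariate and left-out libraries. Ratios of gene pairs were compared by an exact permutation test (scipy 1.17.1).

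The members and lists were chosen with earlier results of these data known. Named genes are all members, the 2 genes with the smallest p in each partner list, the 5 genes most like H1FX-AS1, of which 1 is not reported here, and the tested neighbours of H1FX. Symbols and neighbours come from RefSeq (GRCh38.p14), and lengths from GENCODE 29, a build other than hg19. Coordinates are given for printed sequences only.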

Additional observations from a re-analysis of the deposited data

How the results depend on the processing

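In none of the 17 alternatives run on single genes was any of the 7 tested histone genes called, and the partner lists had 0 calls in each. With H1FX and H1FX-AS1 summed into 1 row, 1 of 7 was called, namely that row, a call fixed by the choice of H1FX-AS1 that says nothing of H1FX. The log2 fold change of H1FX-AS1 was -1.55 after thinning and -1.29 for the summed row, and lay between -1.96 and -1.69 in all other alternatives. The 12 calls over all genes became 48 with no low-count filter, 43 with reads outside genes as a covariate, 7 without SOX10 replicate 1 and control replicate 3, 0 after thinning, and 6 to 18 without single libraries (6 without control replicate 1). The cause was not tested.

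H2AFZ, at -0.02, changed sign to 0.0078 with upper quartile scaling, 0.013 with no filter and 0.026 after thinning, and ran from -0.084 to 0.052 without single libraries. H2AFX, at 0.01, changed sign to -0.085 after thinning and -0.12 without SOX10 replicate 1 and control replicate 3, and ran from -0.096 to 0.086 without single libraries. The log2 ratio of H2AFZ to H2AFV ran from -0.27 to 0.018 and that of H1FX to H1F0 from -0.75 to -0.19 without single libraries.

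Replicate numbers are shared between the groups. The deviations of same-numbered libraries correlated at -0.03, -0.033 and -0.14, and those of differently numbered ones at -0.103 to 0.151. These values show no pairing by number. Whether same-numbered libraries were handled together cannot be told from them. With the replicate block 7 genes were called, and the differences of the 2 ratios stayed at -0.10 and -0.52, with exact sign-flip p-values of 0.75 and 0.5. H1FX had the fewest reads of the 7 tested histone genes, 157 in all, with 13 or 14 in 3 of the 6 libraries.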
